A study of Mus musculus with 18 samples.

Results

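*Stag1* was knocked down in mouse embryonic stem cells (mESCs) with 4 different siRNA reagents, and the question taken up here was which expression changes the 4 reagents had in common. The comparison pooled 8 knockdown libraries against 4 control libraries, 12 of the 18 samples of the series. The members were chosen by their labels: every library of replicate sets 2 and 3 that was treated with a *Stag1* reagent (SP, 3p, 5p or SATS, 1 library of each per set), and every control library of those sets (scr in both sets, untreated in set 2 and luciferase in set 3). Set 1, with a single scr library and 3 SP libraries, stayed outside the fit and was used as a separate look at the genes called.

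All 12 libraries came from male E14 mESCs grown on gelatin in serum with LIF. Transfected cells were harvested 24 h after siRNA was added, and total RNA was depleted of rRNA before sequencing. SP was a commercial pool of siRNAs to *Stag1*, 3p a pool against the 3′ end of the mRNA, 5p a single custom duplex against the 5′ end, and SATS an enzymatically prepared siRNA (esiRNA) against the 5′ UTR named SATS. The catalogue numbers of the 3p siRNAs in the methods end like those of siRNAs in the SP pool, so SP and 3p may share siRNAs and are not independent reagents. The scr control was a scrambled siRNA and the luciferase control an esiRNA against a gene that the cells lack. The untreated control is labelled only as that, and no transfection is given for it. Untreated and luciferase cells were each sequenced in 1 library only, and nothing in the labels says whether the libraries of a set came from separate cultures, so p-values measure the spread between these libraries.

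Cohesin is a ring-shaped complex that holds sister chromatids together and shapes chromatin loops, and STAG1 and STAG2 are the alternative subunits that tie the ring to chromatin. In mESCs, a network of transcription factors that includes NANOG, ESRRB, KLF4, TFCP2L1 and TBX3 maintains the naive state of pluripotency, downstream of LIF and STAT3. Transfected double-stranded RNA can also be sensed by innate immune receptors, and interferon-induced genes are a usual readout of this.

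The 12 libraries held 32137666 to 45660840 reads on genes, of which the ribosomal precursor gene *Rn45s* took 19.67% ± 3.19 (SD, n = 8) in knockdown and 18.8% ± 2.36 (SD, n = 4) in control libraries. This difference of 0.872 percentage points was smaller than the spread between libraries (p = 0.56, exact two-sided permutation test within sets, 225 regroupings, smallest possible p 0.00444). All 10 markers of embryonic stem cells were above the filter, and their summed normalised read count was 47781 to 54042 in knockdown and 52505 to 55827 in control libraries. The sets themselves were far apart for many genes, as *Tbx3* and *Lefty1* show below, and the set was a term of the fit. A value below is a normalised read count, the reads of a gene divided by the size factor of its library. A log2 fold change is knockdown minus control on the log2(value + 1) scale with the set as block, ± its standard error. A gene was called higher or lower at a Benjamini-Hochberg adjusted p under 0.05 by limma over 16684 genes.

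*Stag1* itself fell in all 8 knockdown libraries. In set 2 its normalised read count was 1876 in scr and 1619 in untreated cells, against 406 with SP, 392 with 3p, 441 with 5p and 947 with SATS. In set 3 it was 2113 in scr and 2200 in luciferase cells, against 370 with SP, 365 with 3p, 401 with 5p and 1051 with SATS. The highest knockdown library of either set, SATS, lay well under the lowest control. The pooled log2 fold change was −1.96 ± 0.26 (adjusted p = 0.00995), which leaves 25.7% of the control level. The reagents were not equal: the log2 fold change was −2.32 with SP, −2.36 with 3p and −2.20 with 5p, each ± 0.10, and −0.96 ± 0.10 with SATS. The difference of SATS from the mean of the other 3 was 1.33 ± 0.10 (adjusted p = 1.53e-05). *Stag1* spans bases 100597798 to 100959375 of the plus strand of chromosome 9 in GRCm38, the mouse build also called mm10.

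**Figure D1:**
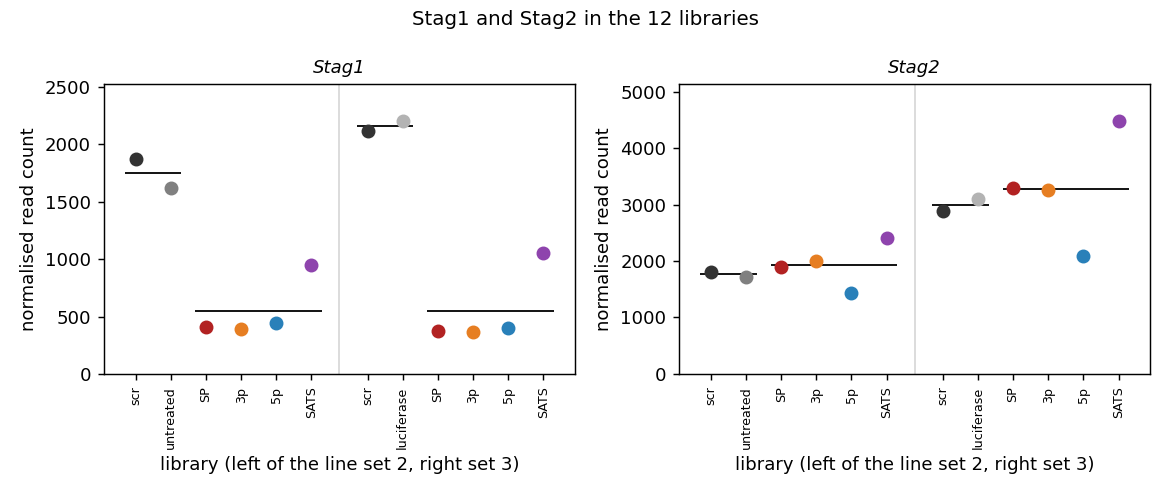
Normalised read counts of *Stag1* (left panel) and *Stag2* (right panel) in each of the 12 libraries, coloured by treatment, with set 2 to the left and set 3 to the right of the grey line; black lines are the means of the controls and of the knockdown libraries of a set. *Stag1* is at most 1051 in the 8 knockdown libraries and at least 1619 in the 4 controls, whereas *Stag2* is below the controls with 5p and above them with SATS.

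*Stag2*, the alternative subunit, was not called in the pooled comparison (0.09 ± 0.15, adjusted p = 0.835). Its level stood at 1812 and 1719 in the set 2 controls and at 2895 and 3092 in the set 3 controls. With 5p it was lower, at 1434 and 2092, and with SATS it was higher, at 2406 and 4474. The log2 fold change was −0.41 with 5p, 0.51 with SATS, 0.12 with SP and 0.15 with 3p (each ± 0.07), and the F test between the 4 reagents gave an adjusted p of 0.000109. Of the 19 genes tested from the list of cohesin subunits, cohesin regulators and *Ctcf*, *Stag1* was the 1 called, and the median of the list was 0.05 against −0.00018 over all genes tested.

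In the pooled comparison 34 genes were called, 0.204% of those tested. Of these, 13 were higher (0.0779%) and 21 lower (0.126%), *Stag1* included, and 2131 genes had an unadjusted p under 0.05. Apart from *Stag1* the changes were small: absolute log2 fold changes ran from 0.28 to 0.90, with a median of 0.51 for the genes called higher. In all 34 genes the 4 knockdown libraries of each set lay beyond both controls of that set, in the same direction in set 2 and set 3. Over all genes tested this separation was seen for 287 genes upward (1.72%) and 379 downward (2.27%), 3.99% in all, and the 34 genes were chosen by the same difference.

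**Figure D2:**
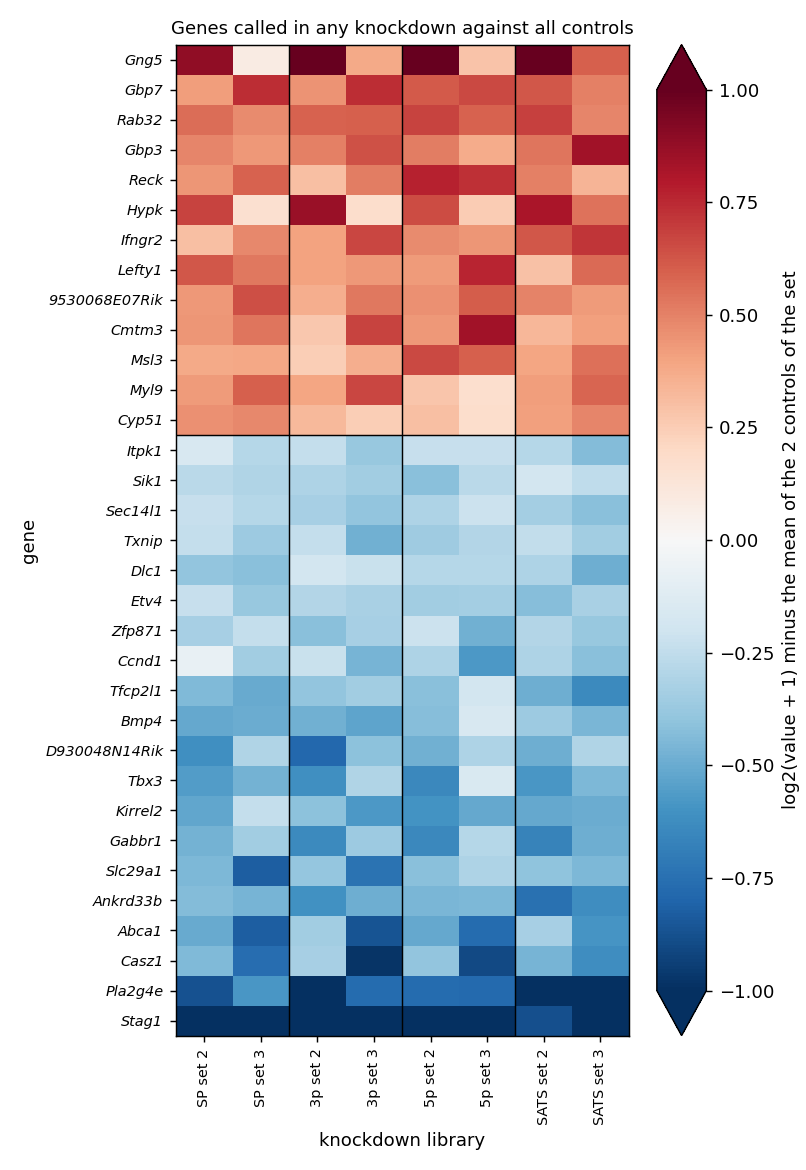
Of the genes called in the pooled comparison, 33 (rows, ordered by log2 fold change) in the 8 knockdown libraries (columns, grouped by reagent). Colour is log2(value + 1) minus the mean of the 2 controls of the same set, cut at −1 and 1. The upper 13 genes are above the control mean and the lower 20 below it in every library, with *Gng5* and *Hypk* stronger in set 2.

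Of the genes called higher, *Gbp7*, *Gbp3* and *Ifngr2* are described together here, a grouping made after the calls were seen. *Gbp7* and *Gbp3* encode guanylate-binding proteins, GTPases that are induced by interferon, and lie near each other on chromosome 3 (bases 142530342 to 142550149 and 142560026 to 142573209, plus strand, GRCm38). *Gbp7* had a value of 64.2 in scr and 64.8 in untreated cells of set 2, and 86.7, 88.5, 99.3 and 99.8 with SP, 3p, 5p and SATS. In set 3 it had 43.6 in scr and 41.5 in luciferase cells, and 71.7, 71.8, 68 and 60.7 with the 4 reagents in the same order. No knockdown library overlapped a control of its set, and in set 2 the transfected scr library and the untreated one were nearly equal. The log2 fold change was 0.59 ± 0.09 (adjusted p = 0.0123), and it was nearly the same with each reagent (0.58, 0.60, 0.64 and 0.56, each ± 0.13).

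*Gbp3* showed the same order of groups. Its values were 104 and 102 in the set 2 controls and 145, 146, 147 and 149 with SP, 3p, 5p and SATS. In set 3 they were 41.3 and 50.5 in the controls and 62.1, 71.4, 59.2 and 82.7 with the reagents, so that the groups again did not overlap (0.54 ± 0.10, adjusted p = 0.0289). *Gbp2*, a further member of the family, was not called (0.09, adjusted p = 0.741). Guanylate-binding protein genes resemble each other in sequence, so reads could be shared between them, and this was not tested.

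*Ifngr2*, the second subunit of the interferon gamma receptor, rose as well. It stood at 157 and 149 in the set 2 controls and at 188, 203, 212 and 236 with SP, 3p, 5p and SATS. In set 3 the controls had 101 and 97.5 and the reagents 139, 158, 135 and 164 (0.51 ± 0.08, adjusted p = 0.0154). The gene of its partner subunit, *Ifngr1*, named here after its values were seen, had a log2 fold change of 0.03 ± 0.09 (adjusted p = 0.911).

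The promoters of *Gbp7* and *Gbp3* are shown because both hold the interferon-stimulated response element, here GAAA, 2 bases of any kind and GAAA again, on either strand. Each line gives 30 bases of the RefSeq promoter window (250 bases before to 50 after the gene start, GRCm38.p6, plus strand), with the motif in capitals. The first is at chr3:142530273-142530302, the second at chr3:142559989-142560018, and the third, at chr3:142530219-142530248, holds the letters TTCNNNGAA of a STAT site (either strand).
Gbp7: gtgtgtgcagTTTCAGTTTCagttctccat
Gbp3: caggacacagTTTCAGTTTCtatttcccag
Gbp7 STAT site: ttccgttttctTTCCAGGAAaagcagaagc

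A promoter window was found for 12 of the 13 genes called higher and for 15 of the 21 called lower. The response element occurred in 2 of the 12 (*Gbp7* and *Gbp3*), in 1 of the 15 (*Sec14l1*) and in 3.48% of the 12160 genes tested that had a window. TTCNNNGAA occurred in 2 of the 12 (*Gbp7* and *Gng5*), in none of the 15 and in 8.12% of all. The narrower letters TTCCNGGAA of a STAT3 site occurred in 1 of the 12 (*Gbp7*), in none of the 15 and in 1.52% of all. TCACNCCAC, the letters of a sterol response element, occurred in none of the 12, none of the 15 and 1.49% of all. These are matches of letters and not binding sites.

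The wider interferon list was mostly on the higher side but held no called gene. Of 29 members tested, 21 had a positive and 8 a negative log2 fold change, with a median of 0.16, and 5 (17.2%) lay above both controls in both sets against 1.72% of all genes in this direction. These were *Ifit1*, *Oasl2*, *Ifih1*, *Tlr3* and *Parp14*, named after their values were seen, with adjusted p from 0.116 to 0.262. *Oasl2*, an interferon-induced relative of the oligoadenylate synthetases, had values of 41.5 and 33.7 in the set 2 controls and of 45.5 to 56.3 in the knockdown libraries. Set 3 had 36.9 and 26.9 against 43 to 64.7. *Ifih1*, the RNA sensor MDA5, had 21.8 and 19.3 in the controls of set 2 and 13.1 and 11.1 in those of set 3, against 23.6 to 29.6 and 19.5 to 21.7. The level of *Tlr3*, a sensor of double-stranded RNA, was 38.7 and 25.9 with 5p and 12.9 to 19.5 with the other reagents, against 11.7 to 12.7 in the controls. *Ifit1* had values under 7 in all 12 libraries. All of these values but those of *Parp14* were low. The 5 genes were picked for lying above both controls in both sets, and the part of transfection in these values was not tested.

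*Lefty1*, a secreted antagonist of Nodal that is also its target, was called higher. Its value was 311 and 322 in the set 2 controls and 487, 418, 426 and 387 with SP, 3p, 5p and SATS. Set 3 had 1349 and 1522 in the controls and 2071, 1935, 2429 and 2120 with the reagents. The level in set 3 was thus several times that in set 2, and within each set the groups did not overlap (0.50 ± 0.07, adjusted p = 0.0111). For *Lefty2*, its paralogue nearby on chromosome 1, the log2 fold change was −0.10 ± 0.16 (adjusted p = 0.833), with −0.55 for 3p and 0.15 for 5p. Of 18 members of the Nodal and Lefty list, *Lefty1* was the 1 called, and the median was 0.05.

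*Cyp51*, the lanosterol demethylase of cholesterol synthesis, was called higher with the smallest change of the group (0.36 ± 0.07, adjusted p = 0.0448). It had 782 and 676 in the set 2 controls and 997, 908, 894 and 967 with SP, 3p, 5p and SATS. Set 3 gave 1358 and 1221 against 1799, 1528, 1458 and 1810. The call was lost with TMM scaling (adjusted p = 0.0558) and in edgeR (adjusted p = 0.0552). Of the 26 genes of the cholesterol list, 23 had a positive log2 fold change and the median was 0.14. *Cyp51*, *Fdps* and *Pmvk*, which make sterols and their isoprenoid precursors, lay above both controls in both sets (11.5% of the list, against 1.72% of all genes). *Fdps* was at 0.21 ± 0.06 and *Pmvk* at 0.24 ± 0.07, and neither was called (adjusted p = 0.153 and 0.162). The median of the list was 0.21 with SP, 0.11 with 3p, 0.10 with 5p and 0.18 with SATS. *Abca1*, which exports cholesterol from the cell, was among the genes called lower (below).

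**Figure D3:**
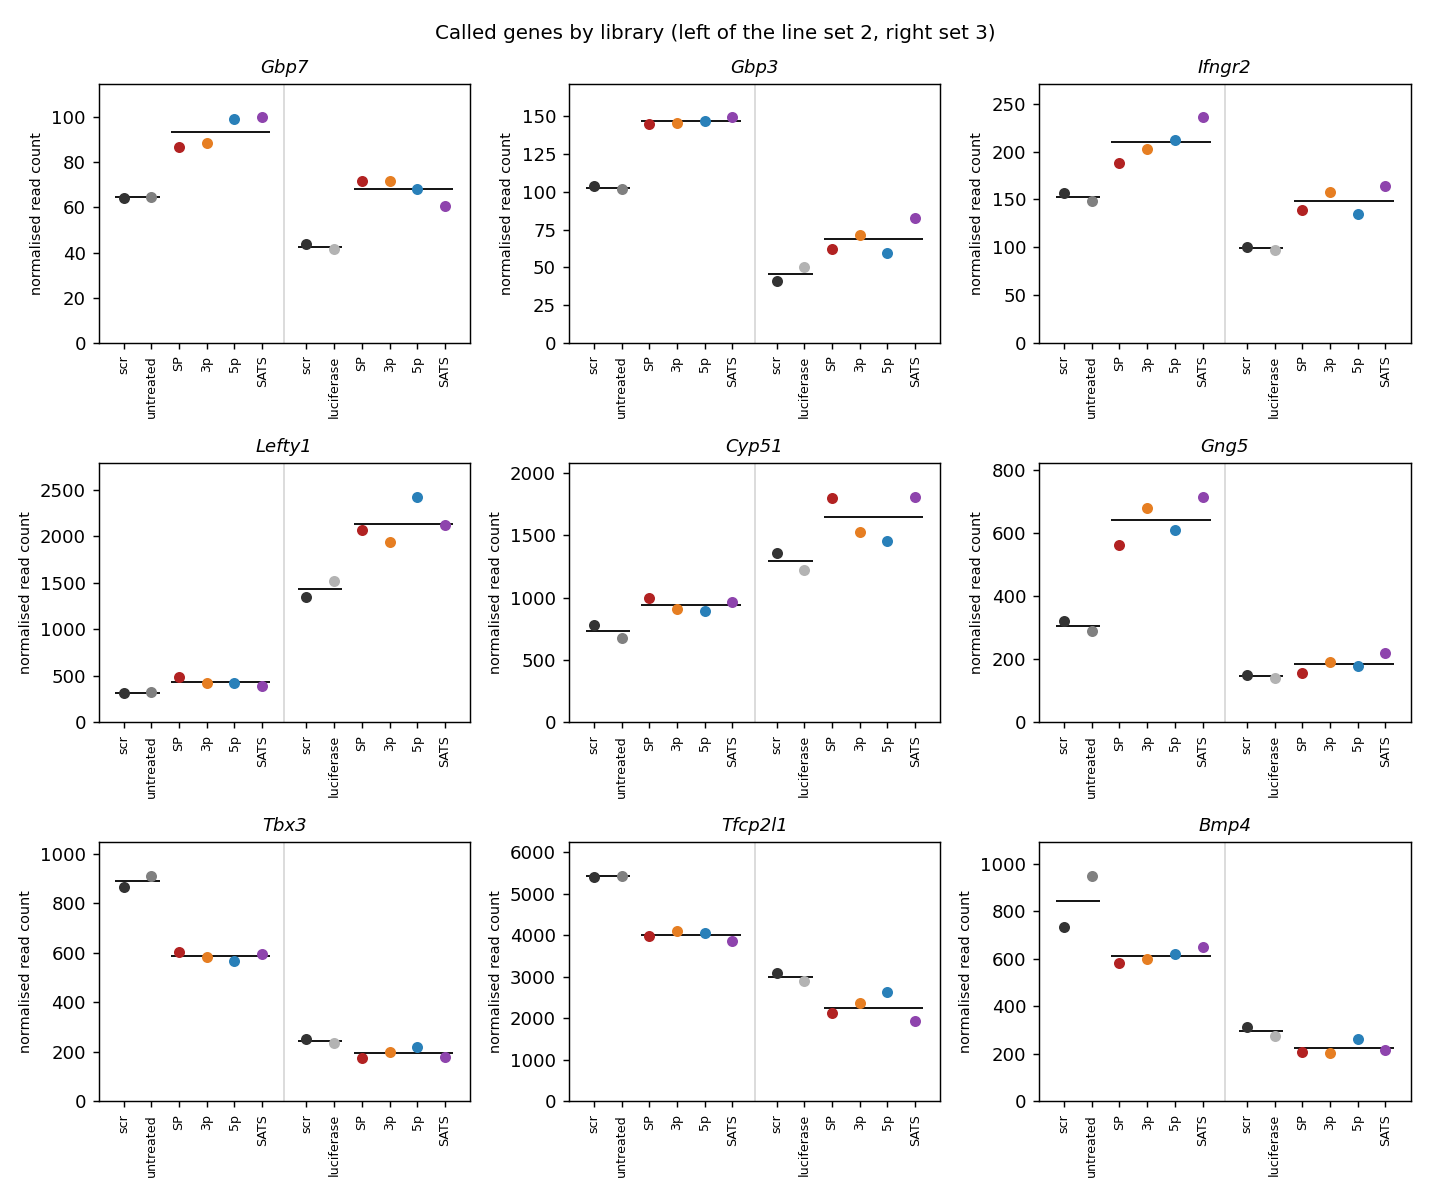
Normalised read counts of 9 called genes in the 12 libraries, coloured by treatment, set 2 left and set 3 right of the grey line, with black lines at the means of the controls and of the knockdown libraries. Within each set the 4 knockdown points lie beyond both control points, upward for *Gbp7*, *Gbp3*, *Ifngr2*, *Lefty1*, *Cyp51* and *Gng5* and downward for *Tbx3*, *Tfcp2l1* and *Bmp4*.

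*Gng5*, a gamma subunit of heterotrimeric G proteins, had the largest rise (0.70 ± 0.13, adjusted p = 0.0346). Its value in set 2 was 323 and 288 in the controls and 563, 681, 610 and 716 with SP, 3p, 5p and SATS. The set 3 libraries had 151 and 141 in the controls and 154, 190, 178 and 221 with the reagents. The knockdown libraries of set 2 stood clear of their controls (log2 fold change 1.07), whereas in set 3 the SP library was barely above scr (0.33 over the 4 reagents). *Hypk*, a partner of the N-terminal acetyltransferase complex, behaved alike: 315 and 303 against 493, 564, 485 and 546 in set 2, and 198 and 191 against 217, 219, 231 and 283 in set 3 (0.52 ± 0.10, adjusted p = 0.0368). No gene passed a test of the difference between the effects of the 2 sets. The annotated exons of *Hypk* overlap those of *Serf2* on the same strand, so its reads may be shared; *Serf2* itself was at 0.03 (adjusted p = 0.898).

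The gene with the smallest p was *9530068E07Rik*, a protein-coding gene of chromosome 11. It had 574 and 576 in the controls of set 2 and 776, 739, 790 and 811 with SP, 3p, 5p and SATS. Set 3 gave 401 and 405 against 630, 582, 613 and 540. The 2 controls of each set were nearly equal, and the change was 0.49 ± 0.06 (adjusted p = 0.00296).

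The other genes called higher have roles in trafficking, the cell surface, contractility and chromatin. *Rab32*, a small GTPase of membrane trafficking, had 67.9 and 49 in the set 2 controls and 52 and 55.2 in those of set 3, and 74.6 to 93.1 in the 8 knockdown libraries (0.58 ± 0.09, adjusted p = 0.0154). *Reck*, a membrane-anchored inhibitor of matrix metalloproteases, had 126 to 147 in the 4 controls and 163 to 235 in knockdown, with the 5p libraries highest in both sets (0.52 ± 0.09, adjusted p = 0.0289). For both genes the 2 groups did not overlap even across sets.

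*Cmtm3*, which encodes a membrane protein of the MARVEL family, had 276 and 259 in the set 2 controls and 322 to 363 in knockdown, and 82.5 and 97.5 against 120 to 161 in set 3 (0.49 ± 0.09, adjusted p = 0.032). *Msl3*, a subunit of the MSL complex that acetylates histone H4, had 148 to 181 in the controls and 190 to 269 in knockdown (0.45 ± 0.08, adjusted p = 0.0368). *Myl9*, a regulatory light chain of myosin, had 750 and 774 against 924 to 1022 in set 2 and 473 and 421 against 501 to 710 in set 3 (0.44 ± 0.08, adjusted p = 0.0346). Its 5p libraries were the lowest of the knockdown libraries in both sets.

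The genes called lower included members of the naive pluripotency network. *Tbx3*, a T-box transcription factor of that network, had 868 and 912 in the set 2 controls and 605, 582, 569 and 595 with SP, 3p, 5p and SATS. In set 3 it had 252 and 237 in the controls and 176, 198, 220 and 179 with the reagents. Its level in set 2 was several times that in set 3, and it fell in both (−0.47 ± 0.07, adjusted p = 0.0154). *Tfcp2l1*, a transcription factor induced by LIF and STAT3, had 5401 and 5433 in the set 2 controls and 3979, 4113, 4064 and 3862 with the reagents. The controls of set 3 had 3096 and 2906 against 2117, 2357, 2637 and 1928 (−0.43 ± 0.07, adjusted p = 0.0154). The 5p library of set 3 was the closest to the controls for both genes.

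*Tbx3* and *Tfcp2l1* were the 2 members called of 30 tested on the naive list. On that list 25 members had a negative log2 fold change, the median was −0.14, and 7 (23.3%) lay below both controls in both sets, against 2.27% of all genes in this direction. The remaining 5 of these 7 were *Esrrb*, *Klf4*, *Klf5*, *Prdm14* and *Zfp57*, named after their values were seen. *Esrrb*, an orphan nuclear receptor, was at 4255 and 4248 in the set 2 controls and at 3446 to 3566 in knockdown, and at 2564 and 2458 against 1796 to 2397 in set 3. Its log2 fold change was −0.31 ± 0.06 (adjusted p = 0.0739). *Prdm14*, which represses differentiation genes, was at −0.51 ± 0.11 (adjusted p = 0.0824), *Klf4* at −0.35 ± 0.08 (adjusted p = 0.0957), *Zfp57* at −0.30 ± 0.06 (adjusted p = 0.0824) and *Klf5* at −0.19 ± 0.06 (adjusted p = 0.175). The median of the naive list differed by reagent, at −0.27 with SP, −0.25 with 3p and −0.18 with SATS, and 0.02 with 5p. The reagents differed by the F test for 10 of the 30 members, against 11.3% of all genes tested.

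None of the core factors was called. *Nanog* had 4069 and 4075 in the set 2 controls and 3023 to 3552 in knockdown, but in set 3 the controls had 2400 and 2346 and the reagents 2011, 2116, 2610 and 2748, with 5p and SATS above the controls. Its pooled log2 fold change was −0.15 ± 0.08 (adjusted p = 0.457). By reagent it was −0.33 with SP, −0.22 with 3p, −0.06 with 5p and 0.007 with SATS (each ± 0.09, F test adjusted p = 0.0924). *Pou5f1* was at −0.07 ± 0.06 and *Sox2* at 0.05 ± 0.08 (adjusted p = 0.683 and 0.844), and none of the 12 genes of the core list was called.

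Of the 21 genes of the LIF and STAT3 list, *Tfcp2l1* was the 1 called, 17 had a negative log2 fold change and the median was −0.18. In 5 members all knockdown libraries were below the controls of their set, as in 2.27% of all genes: *Tfcp2l1*, *Klf4*, *Klf5*, *Pim1* and *Ptpn11*. *Pim1*, a kinase induced by STAT3, was at −0.29 ± 0.08 and *Ptpn11*, the phosphatase SHP2, at −0.27 ± 0.09 (adjusted p = 0.163 and 0.239). *Jak1* was above the controls in both sets (0.16 ± 0.05, adjusted p = 0.224). *Lifr*, the LIF receptor, showed a reagent difference: it was at −0.54 with SP, −0.61 with 3p and −0.48 with SATS, and at 0.02 with 5p (each ± 0.07, F test adjusted p = 0.00103).

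Several genes of signalling pathways were called lower. *Bmp4*, a secreted ligand that restrains neural differentiation in mESCs, had 734 and 949 in the set 2 controls and 584, 599, 621 and 648 with SP, 3p, 5p and SATS. Set 3 gave 315 and 275 against 209, 204, 263 and 214 (−0.43 ± 0.08, adjusted p = 0.0448). It was the 1 gene called of 20 on the list of BMP targets and Id genes, whose median was −0.04. *Etv4*, an ETS factor induced by FGF and ERK, had 818 and 762 in the set 2 controls and 589 to 673 in knockdown, and 631 and 684 against 506 to 525 in set 3 (−0.33 ± 0.05, adjusted p = 0.0154). *Ccnd1*, cyclin D1, had 3412 and 3487 against 3270, 2956, 2781 and 2790 in set 2 and 3015 and 2725 against 2256, 2081, 1927 and 2144 in set 3 (−0.34 ± 0.06, adjusted p = 0.0382). The SP library of set 2 was the nearest to the controls.

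On the list of FGF and ERK feedback genes *Etv4* was the 1 called of 24, and *Dusp4*, an ERK phosphatase, was below the controls throughout (−0.26 ± 0.05, adjusted p = 0.0685). *Fgf4* and *Spry4* were low with SP, 3p and SATS and not with 5p: *Fgf4* stood at −0.56, −0.88, −0.34 and 0.10 (F test adjusted p = 0.000949), and *Spry4* at −0.44, −0.55, −0.44 and 0.03 (F test adjusted p = 0.00999). *Ccnd1* was the 1 called of 28 genes on the Wnt list, whose median was −0.07.

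*Dlc1*, a GTPase-activating protein, had 2633 and 3027 against 2152 to 2484 in set 2 and 2372 and 2186 against 1621 to 1954 in set 3 (−0.32 ± 0.06, adjusted p = 0.0448). *Kirrel2*, an adhesion protein related to nephrin, had 171 and 185 against 117 to 133 and 239 and 243 against 162 to 204 (−0.48 ± 0.08, adjusted p = 0.0154).

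*Abca1*, the exporter of cholesterol, had the smallest p of the fallen genes after *Stag1*. It stood at 430 and 394 in the set 2 controls and at 291, 324, 288 and 328 with SP, 3p, 5p and SATS. Set 3 stood at 318 and 306 against 175, 171, 182 and 207 (−0.59 ± 0.08, adjusted p = 0.00995). *Slc29a1*, a nucleoside transporter, had 2108 and 2048 against 1519 to 1590 in set 2 and 1444 and 1358 against 792 to 1132 in set 3 (−0.50 ± 0.08, adjusted p = 0.0154). *Gabbr1*, a subunit of the GABA-B receptor, had 569 and 652 against 383 to 439 and 461 and 435 against 319 to 367 (−0.49 ± 0.07, adjusted p = 0.0111).

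*Casz1*, a zinc finger transcription factor, had 176 to 186 in the 4 controls, 131 to 144 in the knockdown libraries of set 2 and 89.9 to 116 in those of set 3. Controls of both sets were alike, and the log2 fold change was −0.61 ± 0.09 (adjusted p = 0.0151). *Ankrd33b* had 186 and 133 against 93.5 to 116 in set 2, where the controls were far apart, and 109 and 101 against 67.9 to 76.8 in set 3 (−0.53 ± 0.10, adjusted p = 0.0338). *D930048N14Rik*, annotated as protein-coding, had 188 and 186 against 108 to 134 in set 2 and 177 and 171 against 131 to 142 in set 3 (−0.46 ± 0.08, adjusted p = 0.0281).

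The 7 genes called that the naming rule did not reach, listed here after their values were seen, were *Dlc1* (above), *Pla2g4e*, *Zfp871*, *Txnip*, *Sec14l1*, *Sik1* and *Itpk1*, and all were lower. *Pla2g4e*, a cytosolic phospholipase A2, was the lowest expressed, with 34.8 and 33.3 against 14.5 to 19.6 in set 2 and 16.3 and 12.4 against 5.78 to 9.19 in set 3 (−0.90 ± 0.15, adjusted p = 0.019). *Txnip*, an inhibitor of thioredoxin and of glucose uptake, was at −0.32 ± 0.06, and *Sik1*, a salt-inducible kinase, at −0.30 ± 0.05 (adjusted p = 0.032 and 0.0275). *Zfp871*, *Sec14l1* and *Itpk1*, a kinase of inositol phosphates, were at −0.34, −0.32 and −0.28.

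Annotated exons of *Bmp4*, *Casz1*, *Ccnd1*, *Cyp51*, *Slc29a1*, *Tbx3* and *Txnip* overlap a gene on the opposite strand. The methods state strand-specific counting for paired-end samples, and which libraries were paired-end is not given in the sources used here. The reads of these pairs may therefore not be told apart. Exons of *Gbp7*, *Tfcp2l1*, *Pla2g4e* and *Itpk1*, like those of *Hypk*, overlap a gene on the same strand, so their reads may be shared whatever the counting.

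Ribosomal protein and respiratory chain genes had positive medians without a called member. The 77 genes of cytosolic ribosomal proteins tested had a median of 0.13, 73 of the 77 were positive, and 15 (19.5%) lay above both controls in both sets, against 1.72% of all genes. The median was 0.06 with SP, 0.09 with 3p, 0.09 with 5p and 0.24 with SATS. Of these, *Rpl22* had 3070 and 3027 against 3554 to 4387 in set 2 and 2259 and 2409 against 2673 to 4069 in set 3 (0.40 ± 0.09, adjusted p = 0.0994). In the respiratory chain list 64 of 74 were positive with a median of 0.09. By reagent the median of that list was 0.007 with SP, 0.06 with 3p, 0.08 with 5p and 0.22 with SATS. *Ndufa1*, a subunit of complex I, was at 0.50 ± 0.10 (adjusted p = 0.0788). The small RNA genes *Scarna10*, *Scarna13* and *Rmrp*, named after their values were seen, were at 1.02 ± 0.21, 0.53 ± 0.11 and 0.52 ± 0.11 (adjusted p = 0.0739, 0.0802 and 0.0803). All 3 lay above the controls in both sets, as did 1.72% of all genes. *Scarna10* was at 1.69 in set 2 and at 0.35 in set 3. Annotated exons of *Scarna10* overlap those of *Ncapd2* on the same strand, and those of *Scarna13* overlap *Mir3069*, so reads may be shared.

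The median transcript length was 1094 bases for the ribosomal protein genes and 1186 for the respiratory chain, against 3198.5 for all genes tested. It was 2472 for the 13 genes called higher and 4521 for the 21 called lower, and their median GC content was 47.9% and 52.5%. Genes with a mean of 50 or more were split into 5 classes by length. Of 2136 genes in the shortest class, 74 lay above the controls in both sets and 34 below. Of 2132 genes in the longest class, 27 lay above and 60 below. In the classes between, of 2129 to 2132 genes each, 42 to 50 lay above and 67 to 72 below. The number below was thus lowest in the shortest class and did not rise steadily with length. Over all genes tested, those with a mean under 50 included, the shares were 1.72% above and 2.27% below. The part of transcript length in these results was not tested beyond 1 alternative. In that alternative, added after the data were seen, the trend with length and GC was removed from each library, and 33 of the 34 genes were still called.

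Other lists held no called gene and are given by their medians. The p53 targets had a median of 0.12, with 20 of 30 positive, and the value was 0.20 with SP and 0.01 with SATS. *Cdkn1a*, the cell cycle inhibitor p21, was at 0.30 ± 0.08 (adjusted p = 0.163) and at 0.07 with SATS alone. The list of nucleolar proteins and RNA polymerase I had a median of −0.07, with 27 of 34 negative and 5 below both controls in both sets (2.27% of all genes), and *Taf1c*, a factor of RNA polymerase I, was at −0.27 ± 0.06 (adjusted p = 0.0824). The list of genes of the 2-cell-like state had a median of 0.16, with 0.48 for 5p, 0.08 for SP, 0.05 for 3p and −0.05 for SATS. Markers of germ cells had a median of 0.25, with 13 of 14 positive, and *Stk31* was at 0.41 ± 0.10 (adjusted p = 0.11). The summed value of the germ cell markers was 1488 to 2425 in knockdown and 1547 to 1764 in control libraries. Markers of primitive endoderm, mesoderm, neural cells, trophoblast and fibroblasts held no called gene either, and the ranges of their summed values in the 2 groups overlapped. None of these markers found in the table was at 0 in all libraries.

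The integrated stress response list had a median of −0.09, with 27 of 33 negative, and the enzymes of DNA methylation had −0.09, with 12 of 18 negative and 2 below the controls in both sets (2.27% of all genes). Replication and S phase genes had a median of −0.03, with 28 of 41 negative. The proteasome was at 0.02, the machinery of RNA interference at −0.04, and the imprinted genes at 0.03, each without a called member.

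**Figure D4:**
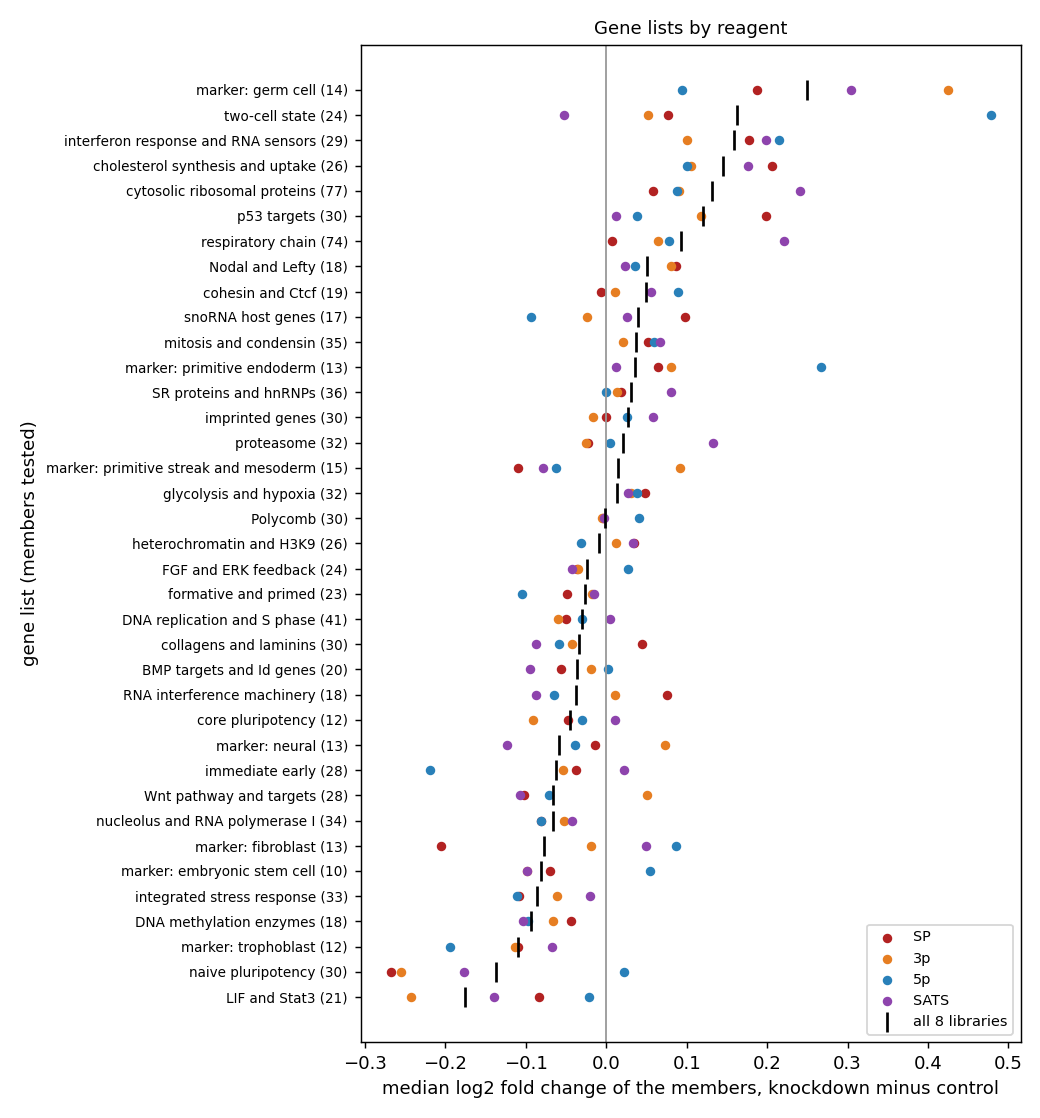
Median log2 fold change of the tested members of each gene list (rows, number of members in brackets) against all 4 controls, for each reagent (coloured points) and over all 8 libraries (black ticks); the grey line is the median of all genes tested. The naive list lies at −0.14 with 5p at 0.02, and the list of the 2-cell-like state at 0.16 with 5p at 0.48.

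The reagents also differed from one another. The F test between the 4 reagents called 1878 genes (11.3%). SATS was higher than the mean of the other 3 reagents for 1038 genes (6.22%) and lower for 549 (3.29%). Of the 34 genes called in the pooled comparison, *Stag1* was the 1 that differed between reagents by either test. The pooled fit counts reagent differences as error, so genes uneven between reagents were less likely to be among the 34. A fit with a term for each reagent does not count reagent differences as error. In it the mean of the reagents was higher than the controls for 257 genes (1.54%) and lower for 256 (1.53%). All 34 genes were among them, but both fits use the same libraries and give the same fold changes, so this overlap adds no support. The effects of the 4 reagents all rest on the same 4 controls, so their likeness is not independent evidence. No gene was called between scr and the other controls (0%) by limma, edgeR or DESeq2, with 373, 372 and 125 genes at an unadjusted p under 0.05. The other controls were untreated cells in set 2 and luciferase cells in set 3, and the part of transfection was not tested.

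The calls depended on single control libraries. Leaving out 1 control library left 0 to 9 of the 34 genes called: 9 without scr of set 2, 3 without the untreated library, 3 without the luciferase library and none without scr of set 3. Leaving out 1 knockdown library left 17 to 34. With the set dropped from the model no gene was called, and with the reagent as a random effect (correlation 0.261) only *9530068E07Rik* and *Stag1* were, each at an adjusted p of 0.00906.

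**Figure D5:**
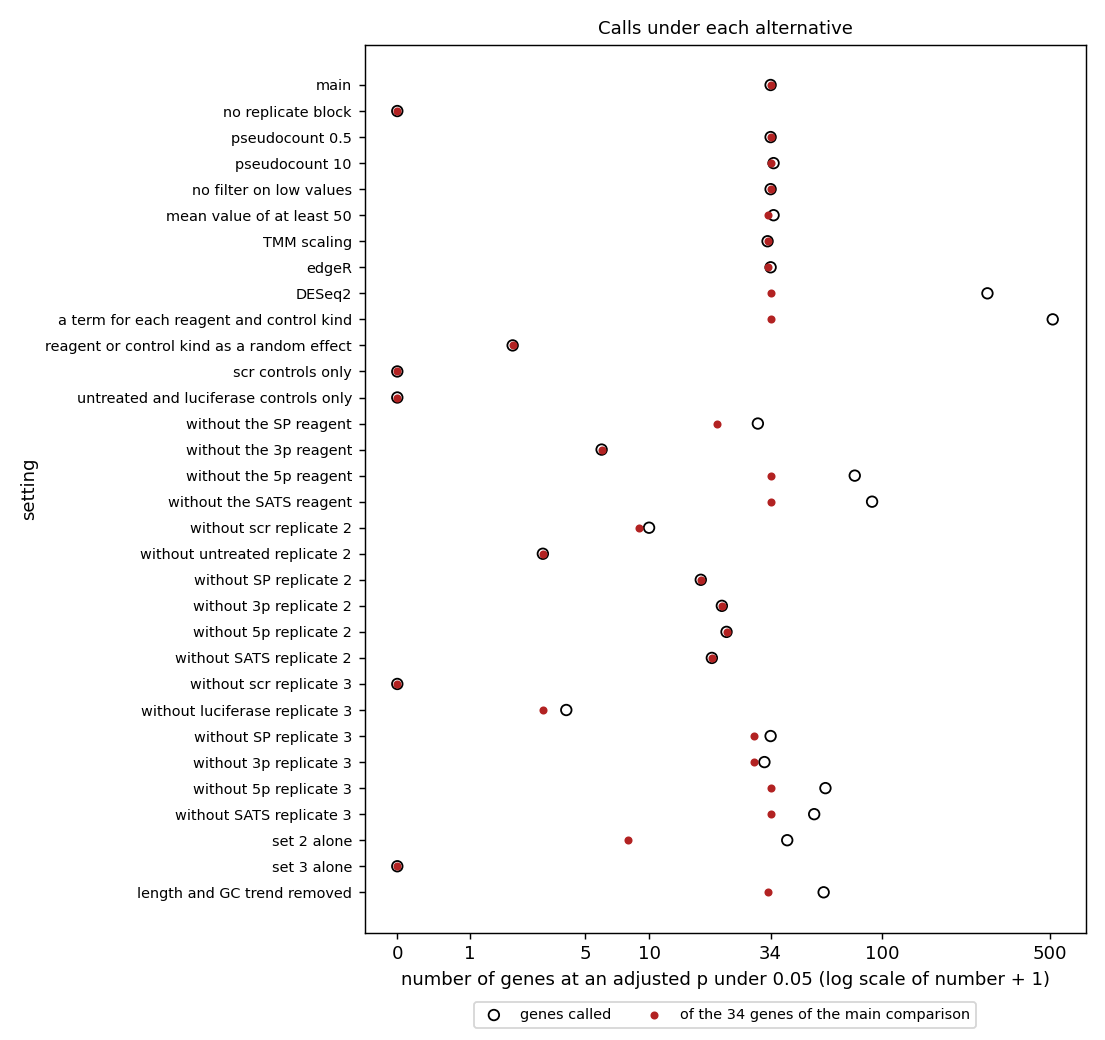
Number of genes called (open circles) and number of the 34 genes of the main comparison among them (red points) under each setting, on a log axis of the number plus 1. The number of the 34 genes kept falls to 0 without scr of set 3, without the block, with either kind of control alone and in set 3 alone, and stays at 34 without the 5p or the SATS reagent.

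Set 1 gave a separate view, with libraries that entered no fit and were unlike those of sets 2 and 3. The normalised read count of *Rn45s* was 3.13e+07 to 5.75e+07 in set 1, against 2.20e+06 to 3.88e+06 in the 12 libraries. Depth on other genes was low: *Pou5f1*, which was not called, had 1686 reads in scr of set 1, against at least 14935 in each of the 12. *Stag1* had 301 reads in scr of set 1, fewer than the 828 of the lowest knockdown library. Set 1 compared 3 SP libraries with 1 scr library, so it has no test. It was read for genes with at least 20 reads in that scr library. *Stag1* had 2016 in scr and 512, 627 and 660 with SP. Of the 20 other genes called lower, 19 had enough reads, and 16 of these had a lower mean with SP than in scr (84.2%, against 51.3% of 9006 genes), with a median log2 difference of −0.57. In 12 of the 19 all 3 SP libraries were below scr, as in 2710 of the 9006 genes. *Tfcp2l1* had 8143 in scr and 3535, 2464 and 2392 with SP, *Abca1* had 790 and 362, 238 and 242, and *Tbx3* had 2792 and 1542, 482 and 177. Of the 13 genes called higher, 7 had enough reads, and 3 of these had a higher mean with SP, with a median of −0.15. In 1 of the 7 all 3 SP libraries were above scr, as in 2322 of the 9006 genes. In 4 of the 7 all 3 were below it. *Lefty1* was lower with SP in this set, with 1400 in scr and 306, 360 and 1208 with SP. *Gbp7* and *Gbp3* had 4 and 2 reads in the scr library of set 1, too few to compare.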

How the data were processed

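RNA-seq of 12 serum mESC libraries was analysed, 8 with *Stag1* knockdown and 4 controls, grouped by their GEO labels. The authors mapped the reads with HISAT2 against mm10, assigned them to genes with featureCounts, and deposited a normalized signal, the gene counts over the DESeq2 size factor of the library (version 1.14.1, per the labels). Dividing each library by the value of 1 read gave whole reads for 100% of values (tolerance 0.01), from which depth and edgeR and DESeq2 alternatives were computed. The methods state a filter at a summed value under 10, which the values do not show. A second deposited table, CPM values of set 1, was not used.

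log2(value + 1) was fitted with limma 3.58.1 (trend, R 4.3.3) with set and arm as terms and 9 residual degrees of freedom, over 16684 of 18659 genes, those whose 12 values summed to 10 or more. A further fit had a term per reagent, a term for scr and a shared term for untreated and luciferase cells. The pseudocount shrinks the fold change of genes with low values. No interval for counting error was computed, and PCR reads are not independent molecules. Same-set libraries deviated together from their group means (correlation 0.856, 0.809 to 0.934, 10 pairs, 11026 genes), by set numbers in the labels. With 2 sets this correlation largely shows the difference between them. The set block was in the main design.

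Named genes were *Stag1*, *Stag2* and called cohesin genes; the 12 largest called rises and falls with a mean of at least 50 and the same direction in all 8 libraries; the 5 called genes that differed most between reagents; up to 4 called genes per list; and *Nanog*, *Pou5f1*, *Sox2* and *Rn45s*. Other names were chosen after their values were seen. The comparison, the lists and the rule were chosen with earlier results of these data known. Coordinates and transcript lengths came from GENCODE vM21 (GRCm38). The fits were tested on simulated data. Alternatives covered scaling, filter, pseudocount, test, block, controls, reagents and single libraries (edgeR 4.0.16, DESeq2 1.42.0). The libraries of cells in 2i were not analysed here. Of the genes called lower, 1 is not reported here.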

Additional observations from a re-analysis of the deposited data

Results flagged for a closer look

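One library of 1 called gene stood apart from the rest of its group: *Bmp4* in the 5p library of set 3 differed from the control mean of its set by −0.16 on the log2 scale, and the other 7 knockdown libraries differed by −0.53 to −0.36. By chance about 1 in 20 groups of like values shows such a gap, and 1 of the 174 groups of values examined did. Many of these groups held the control libraries of both sets together, where a difference between sets makes such a gap less likely. The count therefore does not show that outliers are absent.

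The effect differed between the 4 reagents by the F test for 15 of the 85 genes named, against 11.3% of all genes tested, and many of the 85 were named after their values were seen. The adjusted p was 1.61e-05 for *Stag1* and 0.000109 for *Stag2*, the former least reduced and the latter highest with SATS. Of the LIF list, *Lifr* (adjusted p = 0.00103), *Ptpn11* (0.00148) and *Pim1* (0.0203) differed, and of the FGF genes *Fgf4* (0.000949) and *Spry4* (0.00999). *Vgf*, a neuropeptide precursor, was at −1.24 with 5p and −0.22 with SATS (adjusted p = 0.000248). The same test gave an adjusted p of 0.0206 for *Lefty2*, 0.0324 for *Tlr3*, 0.0352 for *Rpl22*, 0.0347 for *Cdkn1a* and 0.0219 for *Ccng1*. In cholesterol synthesis it gave 0.00538 for *Insig1*, highest with SP, and 0.047 for *Msmo1*, highest with SATS.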

How the results depend on the processing

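The calls varied with the 31 alternatives. The direction of the 34 genes did not turn in any, but the knockdown and control libraries of these genes do not overlap in either set, so leaving out libraries, reagents or controls could not turn it. Both counts of called genes, 13 higher and 21 lower, stayed within 1.5 times under the other pseudocounts, the other filters on low values, TMM scaling, edgeR and without the SP reagent, although without SP only 20 of the 34 were still called. DESeq2 called 144 higher and 131 lower, and the fit with a term per reagent 257 and 256. With the reagent or control kind as a random effect 1 gene was called higher and 1 lower, 2 of the 34. Removing the trend with length and GC content, chosen after seeing the data, gave 26 higher. Without the 3p reagent 2 genes were higher and 4 lower (6 of the 34), without 5p 32 and 45, and without SATS 49 and 42. With scr as the only control, or with untreated and luciferase as the only controls, 0 genes were called higher and 0 lower, against 969 and 1127 genes at an unadjusted p under 0.05.

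Without the replicate block, with the set left out of the model, 0 genes were called higher and 0 lower by limma, with 779 at an unadjusted p under 0.05. The list members called went to 0 in both directions, from 2 and 6, the genes that differed between reagents to 2, and those that differed between SATS and the rest to 1. TMM scaling and edgeR each left 1 list member called higher, *Lefty1*. The log2 fold change of *Stag1* was −1.96 without the block (adjusted p = 0.168), −1.997 with scr as the only control (0.28) and −1.92 with untreated and luciferase alone (0.318).

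Leaving out 1 library or a whole set gave 0 to 33 genes higher, 0 to 32 lower, and 0 to 34 of the 34 genes still called. Set 2 alone gave the 33, with 7 lower, and set 3 alone called none. *Stag1* ranged from −2.14 to −1.78 and lost its call without scr of set 3 (adjusted p = 0.0761), without luciferase (0.0521) and in set 3 alone (0.931). Genes without overlap between the groups, 666 in all 12 libraries, numbered 762 to 1190, since fewer libraries must then be separated, with 1190 without scr of set 2, 1045 without untreated and 1088 without luciferase. The difference in the *Rn45s* share ranged from 0.0633 to 1.9 percentage points.

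The sign turned for 5 uncalled genes. *Lefty2* was at 0.0037 with scr as the only control and at 0.050 without 3p, *Sox2* at −0.017 without 5p, and *Stag2* at −0.045 without SATS and −0.0085 without the length and GC trend. When 1 library or set was left out, *Lefty2* ranged from −0.28 to 0.079, *Sox2* from −0.024 to 0.12, *Rn45s* from −0.022 to 0.17 and *Ifngr1* from −0.012 to 0.074. The cause of these changes was not tested. With 4 controls of 3 kinds in 2 sets, control kind and set cannot be told apart for untreated and luciferase cells. Genes with few reads, such as *Ifit1*, are limited by depth.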

Other observations

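Further genes that missed the threshold are given here as values, chosen after they were seen. *Hmgn5*, a nucleosome-binding protein, had 71.7 and 68.7 in the set 2 controls and 129 to 173 in knockdown, and 142 and 145 against 157 to 272 in set 3 (0.76 ± 0.15, adjusted p = 0.0583 by limma). *Vgf* had 645 and 663 against 296 to 569, and 174 and 202 against 74 to 158 (−0.70 ± 0.17, adjusted p = 0.118). *Socs1*, a feedback inhibitor of cytokine signalling, was at 0.43 ± 0.10, and *Cxcl11*, a chemokine induced by interferon, at 0.58 ± 0.18 (adjusted p = 0.118 and 0.195). In all 4 genes every knockdown library lay beyond both controls of its set, as in 3.99% of all genes tested.

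Of the replication genes, *Mcm10* was at −0.20 ± 0.04 and *Cdc6* at −0.20 ± 0.06 (adjusted p = 0.0824 and 0.172), and both were below the controls in both sets. *Otx2*, a factor of the formative state, was at 0.27 ± 0.07 (adjusted p = 0.162), with 0.44 in set 2 and 0.10 in set 3. The list of formative and primed genes did not rise as a whole. Of 23 members tested, 9 had a positive and 14 a negative log2 fold change, with a median of −0.03. The 1 gene called on it was *Etv4*, which was lower. *Myc* was at −0.26 ± 0.06 (adjusted p = 0.133), with −0.11 in set 2 and −0.41 in set 3.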
